A study of Mus musculus with 24 samples.

Results

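The metallothioneins and the genes that move zinc across membranes were examined in mouse lung RNA after dosing with 1 of 6 carbon nanomaterials. The set holds 6 genes, Mt1, Mt2, Mtf1, Slc30a1, Slc39a8 and Slc39a14, of 16519 genes that could be tested and 20738 that could be named. They were chosen by name, and each was represented by its brightest spot over all samples. All 6 passed the filter on dim spots.

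The labels describe female C57BL/6 mice of 7 to 8 weeks. Mice received 10 µg a day of a material in 50 µl of phosphate-buffered saline (PBS) for 4 days by oropharyngeal aspiration (a drop on the back of the tongue is inhaled), and lungs were collected 24 h after dosing ended. The material groups were rCNT (rigid carbon nanotubes, 3 samples), tCNT (tangled carbon nanotubes, 3 samples), SES (3 samples, a name the labels do not explain), BayTubes (4 samples), Graphite (4 samples) and fullerene (4 samples), and the Ctrl group (3 samples) received PBS alone. Each sample pooled the lung RNA of 2 mice, so a sample is a pool and not an animal, and the labels do not say whether pools came from separate experiments. The p-values therefore measure the spread between these pools.

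Metallothioneins are small cysteine-rich proteins that bind zinc and copper and buffer the free metal in the cell. MTF1, encoded by Mtf1, is the transcription factor that senses free zinc and binds metal response elements in front of metallothionein genes and of Slc30a1, which encodes the zinc exporter ZnT1 of the cell surface. Slc39a14 and Slc39a8 encode ZIP14 and ZIP8, related importers that bring zinc, manganese and iron into the cell. Besides metals, glucocorticoids and interleukin-6 (IL-6) acting through STAT3 are known inducers of mouse metallothioneins, and IL-6 is a known inducer of Slc39a14 in mouse liver.

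Mt2 and Mt1 lie next to each other on chromosome 8 of the mouse assembly GRCm38.p6, Mt2 at chr8:94172618-94173567 and Mt1 at chr8:94178883-94180327, 5315 bases apart. Mtf1 lies at chr4:124802549-124849800, Slc30a1 at chr1:191906697-191913248, Slc39a8 at chr3:135816882-135888572 and Slc39a14 at chr14:70303467-70351452. RefSeq promoter windows of this assembly, from 250 bases before to 50 bases after an annotated start, were available for 5 of the 6 genes, all except Slc39a14. They were searched on both strands for the core of the metal response element, TGCACNC or TGCGCNC. The windows of Mt2 (chr8:94172368-94172667), Mt1 (chr8:94178839-94179138) and Slc30a1 (chr1:191906531-191906830), all on the plus strand, are shown because these are the textbook MTF1 target genes among the 6, with each match in capitals.

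Mt2: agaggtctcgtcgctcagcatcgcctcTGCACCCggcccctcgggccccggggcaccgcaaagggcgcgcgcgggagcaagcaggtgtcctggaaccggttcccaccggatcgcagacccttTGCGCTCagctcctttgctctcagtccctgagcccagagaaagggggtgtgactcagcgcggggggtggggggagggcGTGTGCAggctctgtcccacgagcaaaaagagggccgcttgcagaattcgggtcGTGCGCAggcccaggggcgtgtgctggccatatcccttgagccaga
Mt1: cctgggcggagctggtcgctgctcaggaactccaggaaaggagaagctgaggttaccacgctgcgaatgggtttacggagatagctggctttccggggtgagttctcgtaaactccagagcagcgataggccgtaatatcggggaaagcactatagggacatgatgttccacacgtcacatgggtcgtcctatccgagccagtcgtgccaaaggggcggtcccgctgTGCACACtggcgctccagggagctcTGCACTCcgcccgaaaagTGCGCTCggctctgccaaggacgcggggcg
Slc30a1: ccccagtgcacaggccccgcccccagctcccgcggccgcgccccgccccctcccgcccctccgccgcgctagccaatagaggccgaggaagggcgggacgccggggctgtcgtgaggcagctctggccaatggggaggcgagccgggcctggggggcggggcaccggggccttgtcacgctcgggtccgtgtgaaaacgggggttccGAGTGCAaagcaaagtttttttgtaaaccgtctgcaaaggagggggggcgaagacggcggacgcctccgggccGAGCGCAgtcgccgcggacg

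The Mt2 window held 4 matches, the Mt1 window 3 and the Slc30a1 window 2. The starts used for Mt1 and Slc30a1 lie inside the gene spans given above, while that of Mt2 is the start of its span. The counts therefore depend on which annotated start was used. Of 32851 promoter windows of the same length, 25.7% held at least 1 match, 7.11% at least 2, 1.97% at least 3 and 0.517% at least 4. Slc39a8 had 2 windows, with 0 matches and 1 match, and the Mtf1 window had 0. The antioxidant response element core, TGACNNNGC, matched once in the windows of Mt2, Slc30a1 and 1 of the 2 of Slc39a8, against 12.4% of all windows. The STAT site TTCNNNGAA matched in 0 windows of the 5 genes, against 8.3% of all windows. Such matches describe letters in a window and not binding.

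The samples were measured on 12 arrays on 3 slides, with 2 samples per array in different dyes, and values are log2 signals. Precision is limited by how many samples each group has, and over all genes the standard error of a change against Ctrl had medians of 0.13 to 0.16 by material. Slides 1 and 2 held Ctrl samples and slide 3 held none. The residual SD over all genes was largest in rCNT 4 (0.495), Graphite 16 (0.430) and Graphite 13 (0.389), and rCNT 4 and Graphite 16 shared an array. The lung label was checked with alveolar type 2 cell genes, and the surfactant gene Sftpc ranged from 16.82 to 17.97 over the samples, at the top of the scale of 4.71 to 17.97.

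Both metallothioneins rose after rCNT. Mt2 had log2 signals of 14.18, 14.02 and 14.15 in the rCNT samples, against 12.31, 12.03 and 11.71 in the Ctrl samples. The groups did not overlap (18.9% of all genes had every rCNT sample above every Ctrl sample), and each rCNT sample lay above each of the other 21 samples of the series, as did 5.42% of all genes. Mt2 was 2.17 ± 0.38 higher on the log2 scale (SE; 4.50-fold, 95% interval 2.61 to 7.77) after rCNT than in Ctrl, with an adjusted p of 0.000364 (limma, 2-sided, Benjamini-Hochberg over all genes). Mt2 was 14.18 in the rCNT sample and 12.03 in the Ctrl sample of slide 1, and 14.15 in the rCNT sample and on average 12.01 in the 2 Ctrl samples of slide 2.

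Mt1, the neighbouring gene, had signals of 14.32, 14.16 and 14.01 in rCNT samples, against 13.68, 13.43 and 13.34 in Ctrl samples. These groups did not overlap either (18.9% of all genes had every rCNT sample above every Ctrl sample). However, samples of tCNT, BayTubes, Graphite and fullerene reached into the rCNT range. Mt1 rose by 0.76 ± 0.22 (SE; 1.69-fold, 95% interval 1.24 to 2.32, adjusted p = 0.0166). Without Ctrl 2 the change was 0.77 with an adjusted p of 0.0525, and with no array block it was 0.64 with an adjusted p of 0.0657, so the call for Mt1 did not hold in those fits. On slide 1 Mt1 was 14.32 in the rCNT sample and 13.43 in the Ctrl sample, and on slide 2 it was 14.01 in the rCNT sample and averaged 13.51 in the 2 Ctrl samples. A fit within slide 2 gave Mt1 a change of -0.38 (adjusted p = 0.528), where the dye term rests on 2 Graphite samples, and the same fit without dye term and array block gave 0.50.

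**Figure D1:**
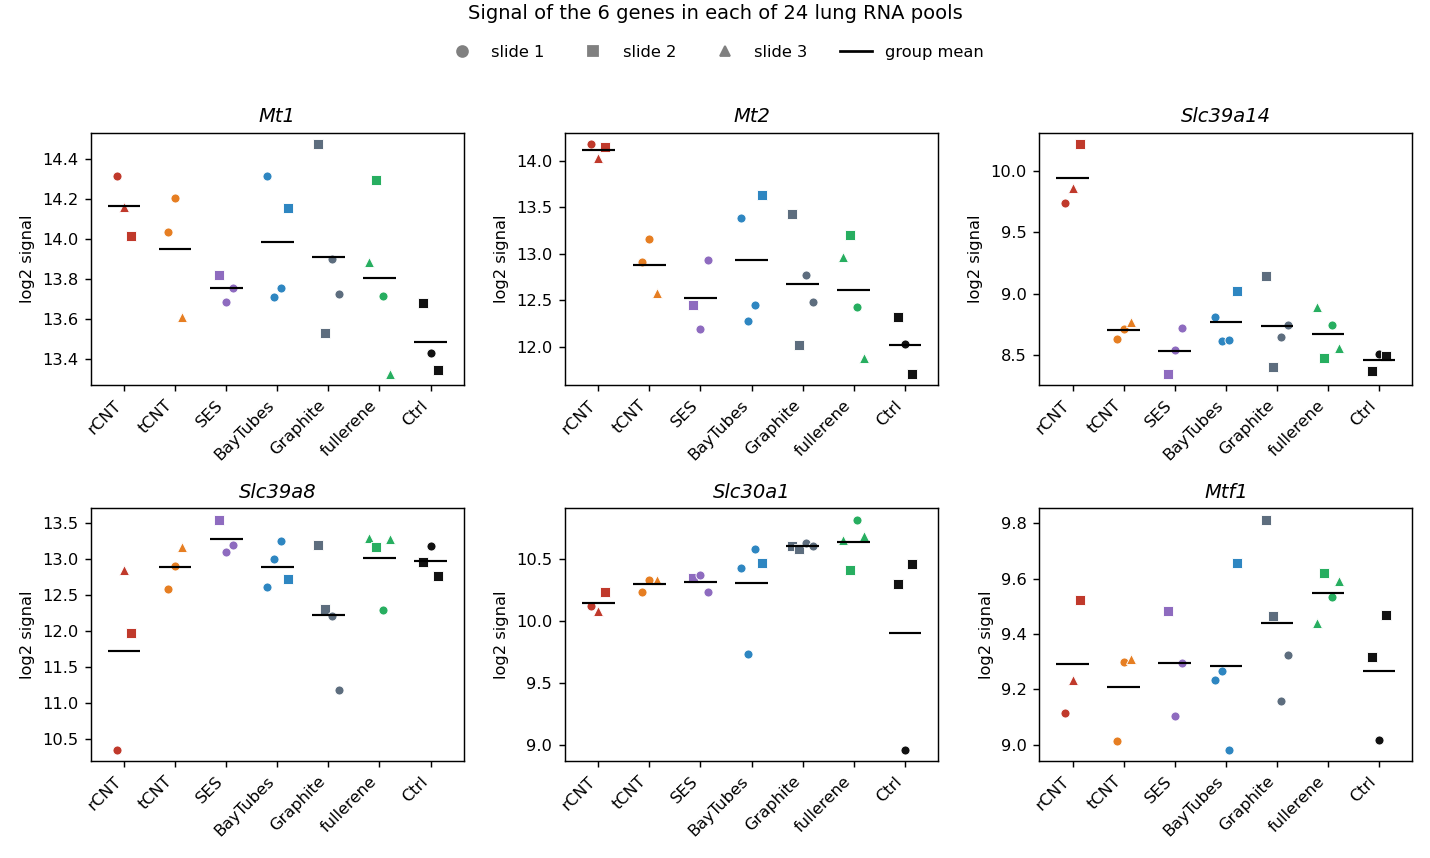
Log2 signal (y axis, a separate scale for each gene) of the 6 genes in the 24 samples by group (x axis), with point shapes for the 3 slides and lines for group means. Mt2 and Slc39a14 in the 3 rCNT samples sit above all other samples, while Mt1 overlaps between rCNT and 4 other materials.

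Slc39a14, which encodes the ZIP14 importer, rose with the smallest p-value of the 6 genes. Its signals were 9.74, 9.86 and 10.22 in rCNT samples, against 8.37, 8.51 and 8.49 in Ctrl samples. As for Mt2, every rCNT sample lay above all other 21 samples, as did 5.42% of all genes. On slide 1 it was 9.74 in the rCNT sample and 8.51 in the Ctrl sample, and on slide 2 it was 10.22 in the rCNT sample and on average 8.43 in the Ctrl samples. The change was 1.53 ± 0.18 (SE; 2.89-fold, 95% interval 2.23 to 3.73, adjusted p = 8.2e-06). It lay between 1.36 and 1.66 when any sample of rCNT or Ctrl or Graphite 13 was left out, with adjusted p of at most 0.000111.

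Slc39a8, which encodes the ZIP8 importer, was the one gene of the 6 with a negative change after rCNT, and it did not pass the test against Ctrl. Its signals were 10.36, 12.85 and 11.96 in rCNT samples, against 12.96, 13.18 and 12.76 in Ctrl samples. The rCNT samples spanned a range far wider than that of the Ctrl samples and overlapped it, since rCNT 5 lay between Ctrl samples. On slide 1 Slc39a8 was 10.36 in the rCNT sample and 13.18 in the Ctrl sample, and on slide 2 it was 11.96 in the rCNT sample and on average 12.86 in the Ctrl samples. The fitted change was -1.06 ± 0.42 (SE, adjusted p = 0.0773). With slide as a further term it was -1.34 and passed the test (adjusted p = 0.0178), as it did without Graphite 13 (-1.20, adjusted p = 0.0325). It was -0.56 without rCNT 4 and -1.72 without rCNT 5, and the fit without rCNT 5 passed the test (adjusted p = 0.00701).

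Slc30a1, which encodes the exporter ZnT1, and Mtf1 did not pass the test after rCNT. Slc30a1 had signals of 10.12, 10.08 and 10.24 in rCNT samples, against 10.30, 8.96 and 10.47 in Ctrl samples. The rCNT samples lay within the range of the Ctrl samples, where Ctrl 2 stood far below Ctrl 1 and Ctrl 3. The change was 0.21 ± 0.23 (SE, adjusted p = 0.565) with all samples and -0.25 without Ctrl 2. Mtf1 had signals of 9.11, 9.23 and 9.52 in rCNT samples, against 9.32, 9.02 and 9.47 in Ctrl samples, and these overlapped. Its change was 0.18 ± 0.16 (SE, adjusted p = 0.475). Mtf1 has 2 dimmer spots, 1 of them below the filter, with plain differences of 0.37 and 0.25 between rCNT and Ctrl. With the mean of its spots Mtf1 passed the test (0.26, adjusted p = 0.037).

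In all, 3 of the 6 genes rose and 0 fell after rCNT, where 21.8% of all genes passed the test, 12.4% as higher and 9.41% as lower. The median change was 0.48 over the 6 genes and -0.02 over all genes. The change of Mt2 was above that of 99.3% of genes, that of Slc39a14 above 98.4% and that of Mt1 above 93.9%.

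**Figure D2:**
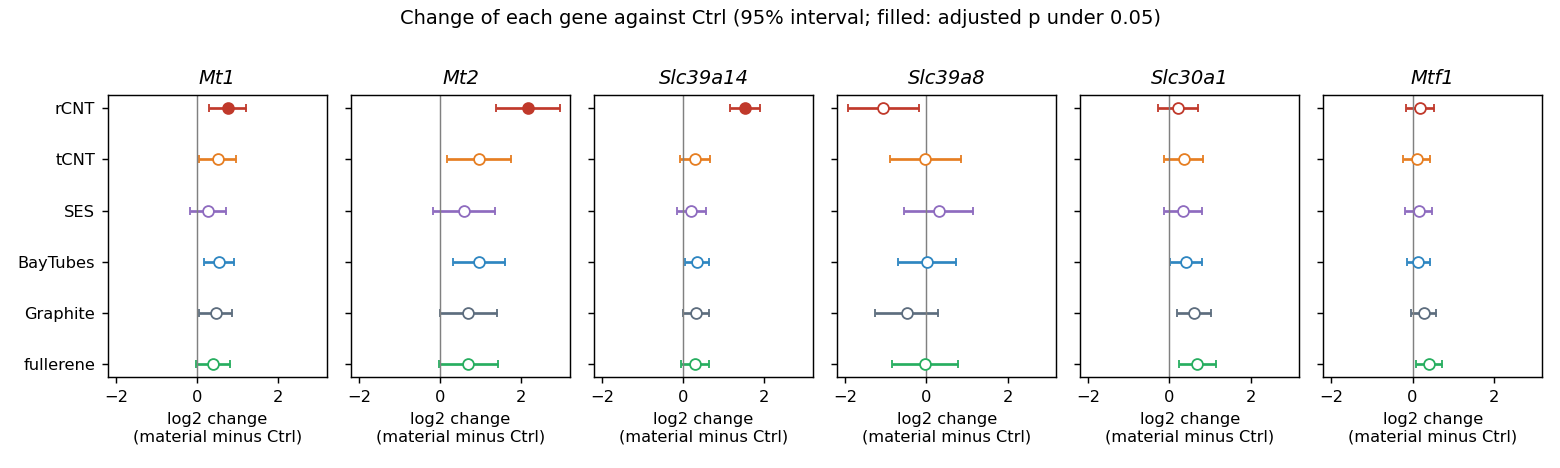
Fitted log2 change of each gene after each material, material minus Ctrl (x axis), with 95% intervals, and filled points where the adjusted p is under 0.05. The filled points are those of Mt1, Mt2 and Slc39a14 after rCNT, and the interval of Slc39a8 after rCNT lies below 0 with an open point.

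After the other materials, 0 of the 6 genes passed the test against Ctrl (limma). The share of all genes that passed was 0.708% after tCNT, 0.0% after SES, 3.18% after BayTubes, 1.13% after Graphite and 0.26% after fullerene. At an unadjusted p under 0.05 the number of the 6 genes was 2 after tCNT, 0 after SES, 4 after BayTubes, 3 after Graphite and 2 after fullerene, against 9.3%, 4.52%, 13.9%, 20.5% and 12.1% of all genes in the same order.

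The fitted change of Mt2 was positive after all of them. Its signals were 12.91, 13.16 and 12.57 after tCNT, 12.45, 12.19 and 12.94 after SES, and 13.38, 12.28, 12.45 and 13.63 after BayTubes. After Graphite they were 13.42, 12.02, 12.77 and 12.48, and after fullerene 12.96, 13.20, 12.42 and 11.87. In each of the 4-sample groups the samples spanned more than 1 log2 unit, and only the tCNT samples lay wholly above the Ctrl samples. The change was 0.95 ± 0.37 after tCNT (SE, 95% interval 0.18 to 1.73, adjusted p = 0.381) and 0.95 ± 0.31 after BayTubes (0.31 to 1.60, adjusted p = 0.116). It was 0.70 ± 0.33 after Graphite (adjusted p = 0.242), 0.70 ± 0.35 after fullerene (adjusted p = 0.433) and 0.58 ± 0.37 after SES (adjusted p = 0.976). These values lay above 98.7 to 99.1% of all genes in each comparison, but all 5 comparisons share the same 3 Ctrl samples. Leaving out BayTubes 19 moved the change after BayTubes to 1.16 with an adjusted p of 0.0292.

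Mt1 changes after these materials lay between 0.27 (SES) and 0.54 (BayTubes), and those of Slc39a14 between 0.20 (SES) and 0.34 (BayTubes), with adjusted p from 0.128 upward. All 4 BayTubes samples and all 3 SES samples lay above every Ctrl sample for Mt1, all samples of tCNT and BayTubes did so for Slc39a14, and all 4 Graphite samples did so for Slc30a1. Of all genes, 6.54% showed this after BayTubes, 7.25% after SES, 8.94% after tCNT, 9.41% after Graphite and 11.2% after fullerene.

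For Slc30a1 the largest positive changes were those after fullerene (0.69 ± 0.21, adjusted p = 0.235) and Graphite (0.60 ± 0.20, adjusted p = 0.116). The Graphite samples read 10.61, 10.58, 10.63 and 10.61, and the fullerene samples 10.66, 10.41, 10.82 and 10.69, against the Ctrl values of 10.30, 8.96 and 10.47. Without Ctrl 2 the changes were 0.26 after fullerene and 0.21 after Graphite. Mtf1 also had its highest mean after fullerene, with signals of 9.44, 9.62, 9.53 and 9.59 and a change of 0.41 ± 0.15 (adjusted p = 0.307).

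Differences between materials were tested directly. Among the 6 materials, Mt2 (adjusted p = 0.0154) and Slc39a14 (adjusted p = 7.3e-05) differed in the F test, as did 16.5% of all genes (17.8% over the 7 groups with Ctrl, where the same 2 of the 6 genes passed), and the other 4 genes did not pass (adjusted p from 0.201 to 0.523). Against the mean of the other 5 materials, where 26.2% of all genes passed, rCNT samples were higher in Mt2 by 1.39 ± 0.28 (SE, adjusted p = 0.000958) and in Slc39a14 by 1.24 ± 0.13 (SE, adjusted p = 1.8e-06). Slc39a8 was lower (-1.01 ± 0.31, SE, adjusted p = 0.0198), a call that was lost without rCNT 4 (-0.51, adjusted p = 0.283). Mt1 differed by 0.33 ± 0.16, which did not pass the test (adjusted p = 0.142), so its rise after rCNT was not shown to differ from that after the other materials.

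The 2 nanotube groups whose labels call them rigid and tangled were given at the same dose and time. Slc39a14 was higher in rCNT samples (9.74, 9.86 and 10.22) than in tCNT samples (8.63, 8.71 and 8.77), by 1.23 ± 0.17 (SE, adjusted p = 0.000228). This call was lost when only the 6 samples of these groups entered the fit and when array was a fixed term, with changes of 1.24 (adjusted p = 0.0638) and 1.21 (adjusted p = 0.204). Mt2 was higher by 1.22 ± 0.37 (SE, 95% interval 0.44 to 1.99, adjusted p = 0.0444), where 8.84% of all genes passed. The adjusted p of Mt2 lay between 0.0217 and 0.193 as each sample was left out. Of these fits, only those without tCNT 8 or Graphite 13 passed the threshold. Mt1 differed by 0.25 (95% interval -0.19 to 0.70, adjusted p = 0.514), Slc30a1 by -0.14 (-0.62 to 0.33) and Mtf1 by 0.08 (-0.26 to 0.42), so differences of those sizes in either direction are within the error. Slc39a8 differed by -1.04 (-1.89 to -0.18, adjusted p = 0.125), but it passed the test with slide as a further term and without rCNT 5.

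All 21 pairs of groups were compared for the 6 genes, each with Benjamini-Hochberg adjustment over all genes within the pair. Mt2 and Slc39a14 were higher in rCNT than in each of the other 5 materials and Ctrl, in comparisons where between 8.84% (against tCNT) and 26.1% (against Graphite) of all genes passed (13.1% against BayTubes). For Mt2 the differences from the other materials were 1.22 (tCNT and BayTubes), 1.47 (Graphite and fullerene) and 1.59 (SES), and for Slc39a14 they lay between 1.19 (BayTubes) and 1.33 (SES). Slc39a8 was lower in rCNT than in SES (-1.36, adjusted p = 0.0299) and fullerene (-1.03, adjusted p = 0.0458), where 17.1% and 23.1% of all genes passed. In the 15 pairs without rCNT, 0 of the 6 genes passed. For the 10 of these pairs that are between materials, the share of all genes was 0.0121% for tCNT against SES, 0.0908% for tCNT against BayTubes, 0.0303% for tCNT against Graphite and 0.145% for tCNT against fullerene. It was 0.0303% for SES against BayTubes, 0.0% for SES against Graphite, 0.0605% for SES against fullerene, 0.0303% for BayTubes against Graphite, 0.0363% for BayTubes against fullerene and 0.0303% for Graphite against fullerene.

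The group means of Mt1 and Mt2 had the same order, rCNT, BayTubes, tCNT, Graphite, fullerene, SES and Ctrl. For Mt2 these means were 14.12 ± 0.08, 12.93 ± 0.67, 12.88 ± 0.30, 12.67 ± 0.59, 12.61 ± 0.59, 12.53 ± 0.38 and 12.02 ± 0.30 (SD, n = 3 or 4). For Mt1 they were 14.16 ± 0.15, 13.98 ± 0.30, 13.95 ± 0.31, 13.91 ± 0.41, 13.80 ± 0.40, 13.75 ± 0.07 and 13.48 ± 0.18. Only the step between rCNT and BayTubes in Mt2 passed the test (1.22 ± 0.35, adjusted p = 0.0275), and no step between neighbours in the order of Mt1 did. Slc39a14 means ran from 9.94 ± 0.25 in rCNT to 8.77 ± 0.19 in BayTubes, the next, and 8.46 ± 0.07 in Ctrl, the lowest. Slc39a8 had its highest mean in SES (13.27 ± 0.24), then fullerene, Ctrl, BayTubes, tCNT, Graphite (12.22 ± 0.82) and rCNT (11.72 ± 1.26). Slc30a1 means lay between 10.64 ± 0.17 in fullerene and 9.91 ± 0.83 in Ctrl, and Mtf1 means between 9.55 ± 0.08 in fullerene and 9.21 ± 0.17 in tCNT.

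Mt1 and Mt2 moved together from sample to sample. Over the 24 samples their Pearson r was 0.858 and their Spearman rho 0.902, and r was 0.895 for deviations from the group means. Within Graphite, for example, sample 13 was highest and sample 14 lowest for both genes, and within fullerene sample 22 was highest and sample 24 lowest for both. Mt2 and Slc39a14 had an r of 0.835 over all samples and 0.551 for deviations from the group means. Slc39a8, Slc30a1 and Mtf1 had r between -0.378 and 0.151 with the metallothioneins over all samples. For deviations from the group means these r lay between 0.022 (Mt1 with Slc30a1) and 0.341 (Mt2 with Mtf1), and Mt2 with Slc39a8 had 0.059. Samples that share an array are not independent, and rCNT samples carry much of the spread, so these are descriptions.

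**Figure D3:**
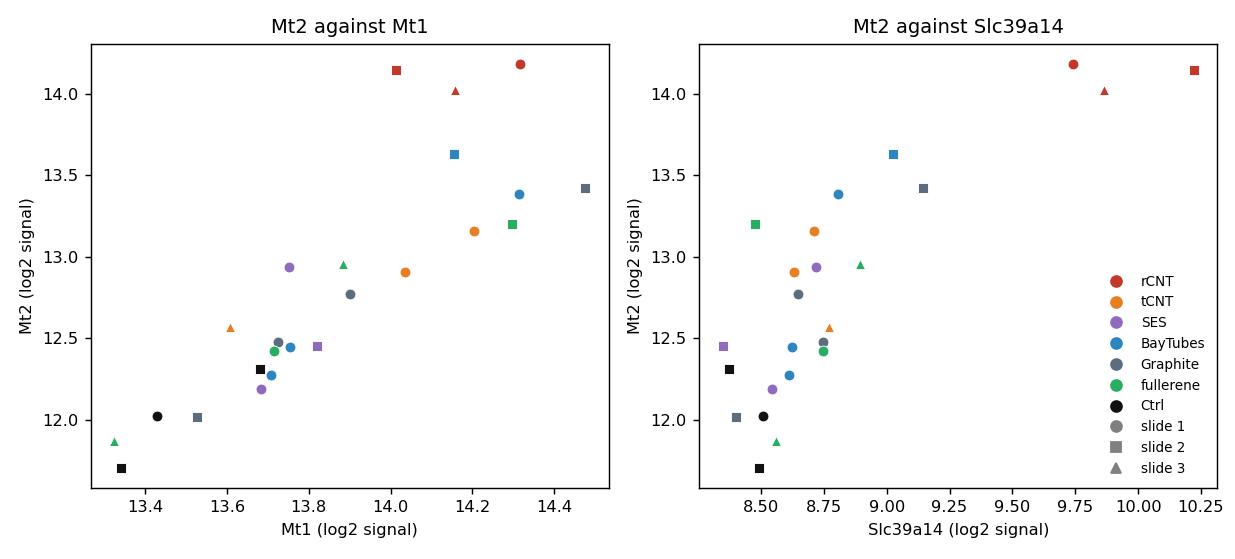
Log2 signal of Mt2 (y axis) against that of Mt1 (left) and of Slc39a14 (right), 1 point a sample, coloured by group and shaped by slide. The 3 rCNT samples lie above the band formed by the other samples on the left and apart at the upper right on the right.

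In the rCNT samples the signal of Mt2 lay closer to that of Mt1 than in any other sample. Signals of 2 probes cannot be set against each other as transcript amounts, but the within-sample difference Mt2 minus Mt1 can be compared between groups. It averaged -0.05 ± 0.15 in rCNT samples and -1.47 ± 0.14 in Ctrl samples (SD, n = 3 each), and the other groups averaged between -1.23 and -1.05. The shift of 1.42 between rCNT and Ctrl had an exact permutation p of 0.1 (2-sided, n = 3 against 3), the smallest that design allows. The shift of 0.40 between tCNT and Ctrl had the same p, so this test does not set rCNT apart. Mt1 signals reached 14.48, and the highest deposited value was 17.97. No saturation flags were used, so saturation of the Mt1 spot was not tested.

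Slc39a8 and Slc30a1 each held samples that deviated together with the other sample of their array. For Slc39a8, rCNT 4 lay 1.37 below its group mean and Graphite 16, on the same array, 1.04 below its own. For Slc30a1, Ctrl 2 lay 0.95 below its group mean and BayTubes 18, on the same array, 0.57 below its own. Values of the first array enter the Slc39a8 changes after rCNT and Graphite, and values of the second the Slc30a1 changes of every material against Ctrl. Mt1, Mt2 and Slc39a14 changes after rCNT without the array of rCNT 4 and Graphite 16 were 0.72, 2.20 and 1.66.

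**Figure D4:**
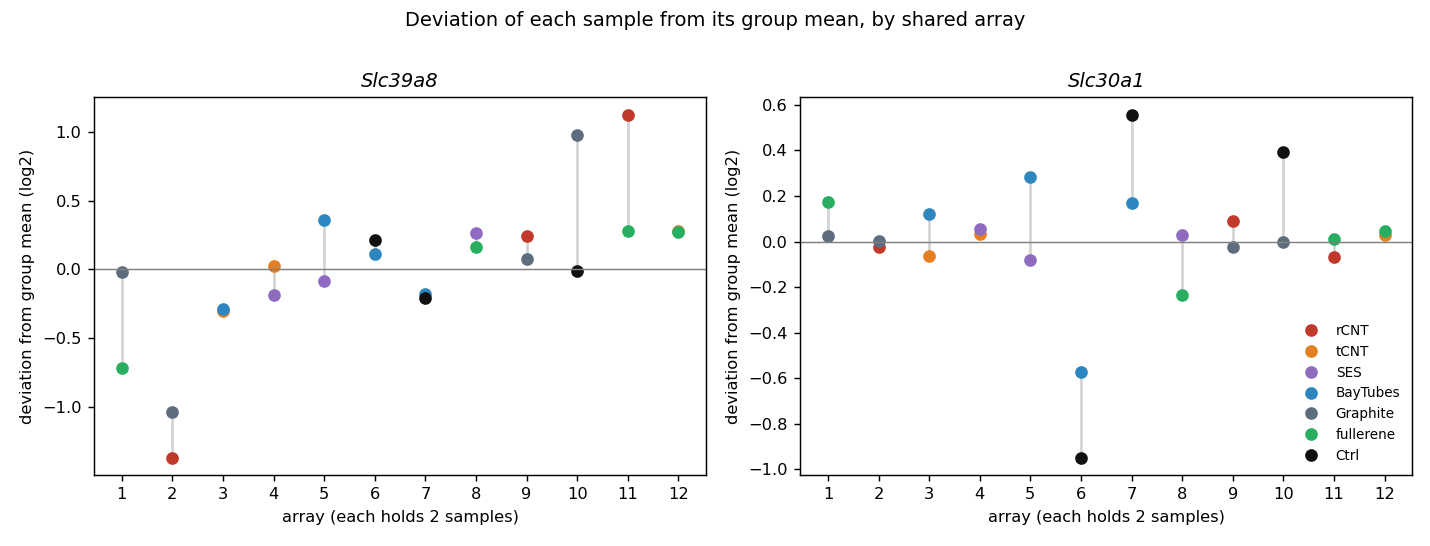
Deviation of each sample from its group mean (y axis, log2) for Slc39a8 (left) and Slc30a1 (right) by array (x axis), with a line joining the 2 samples of an array. On array 2 both samples of Slc39a8 lie below -1, and on array 6 both samples of Slc30a1 lie below -0.5.

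Genes whose signal followed a member most closely were ranked by Pearson r over the 24 samples. For Mt2 the first were C3ar1, a complement receptor (r = 0.946), Rrm2, a subunit of ribonucleotide reductase (0.917), Tctex1d2 (0.917), Aurka, a mitotic kinase (0.915), and Eme1 (0.914). For Slc39a14 they were Cxcl5, a neutrophil-attracting chemokine (0.958), Chl1 (0.951), Il6 (0.950), Serpina11 (0.939) and Pdcd1lg2 (0.936). Mt1 had lower values, with Ocm (0.815), Stra6l (0.812), Fabp2 (0.810), Gm5565 (0.806) and Pla2g10 (0.802). Slc39a8 had the highest of all, with Cnot4 (0.988), Nhlrc2 (0.985), Gng11 (0.984), Hsdl2 (0.983) and Atm (0.981). Slc30a1 was followed by Ric1 (0.935), Arhgef6 (0.913), Tmem38a (0.901), Rnf20 (0.898) and Klhl12 (0.897), and Mtf1 by Adam10 (0.876), Nck1 (0.868), Tent2 (0.858), Zfp24 (0.858) and Zfp644 (0.842). All points share arrays in pairs and the same normalization. For Mt2 and Slc39a14 the rCNT samples lay above all others, as for 5.42% of all genes. Their r values therefore also hold the step between rCNT and the other groups. Slc39a8 was lowest in rCNT 4 (10.36) and Graphite 16 (11.18), which share an array. Slc30a1 was lowest in Ctrl 2 (8.96) and BayTubes 18 (9.73), which also share an array. The r values of Slc39a8 and Slc30a1 therefore also hold those low signals. No r with the ranked genes was computed for deviations from the group means. Il6 rose after rCNT by 3.08 ± 0.24, Cxcl5 by 5.03 ± 0.36 and C3ar1 by 1.69 ± 0.27 (SE), each past the test.

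The wider families were described by counts, to be read against the 12.4% of all genes that rose and the 9.41% that fell after rCNT. Of the metallothionein genes, Mt3 changed by 0.13 and Mt4 by 0.30 after rCNT, and neither passed. Of 7 zinc exporter genes that could be tested, Slc30a6, an exporter of the Golgi, rose (0.48 ± 0.13, adjusted p = 0.0137) and 0 fell, and 3 of the 10 listed were below the filter. Of 13 zinc importer genes 3 rose, Slc39a14, Slc39a1 (0.58 ± 0.12, adjusted p = 0.0019) and Slc39a11 (0.53 ± 0.15, adjusted p = 0.0155). Slc39a3 fell (-0.58 ± 0.13, adjusted p = 0.0027), and with single samples left out Slc30a6 and Slc39a11 could miss the threshold (adjusted p up to 0.0624 and 0.0728). Both Slc39a1 and Slc39a3 also differed between rCNT and tCNT (0.52 and -0.40, adjusted p = 0.0108 and 0.0498). The median change was 0.21 over the exporters, -0.23 over the importers and -0.02 over all genes.

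**Figure D5:**
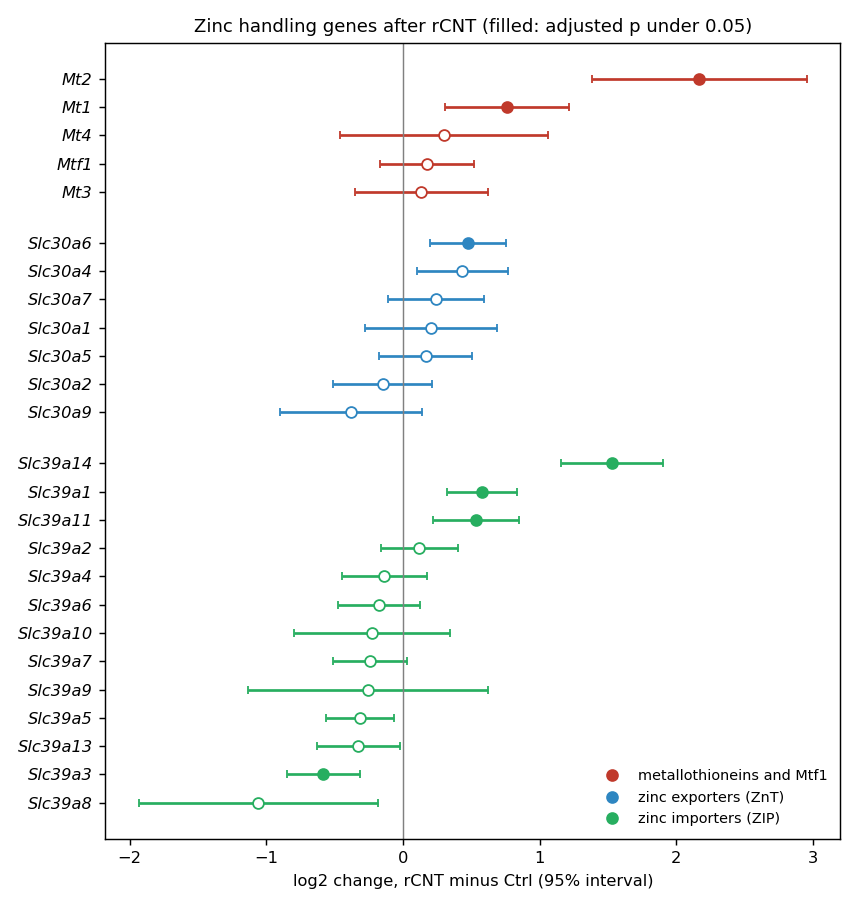
Fitted log2 change after rCNT, rCNT minus Ctrl (x axis), with 95% intervals, for the 25 metallothionein, Mtf1, zinc exporter and zinc importer genes that could be tested, with filled points where the adjusted p is under 0.05. Of the filled points 6 lie right of 0 and Slc39a3 lies left of it.

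After the other materials, Slc39a7, the importer that releases zinc from the endoplasmic reticulum, was the one gene of these families that passed. It fell after Graphite (-0.69 ± 0.11, adjusted p = 0.0070) and after BayTubes (-0.40 ± 0.11, adjusted p = 0.0431), with group means of 13.30 in Graphite and 13.65 in BayTubes, against 14.04 in Ctrl. The call after BayTubes held in 7 of 25 alternative fits and the call after Graphite in 16 of 24.

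Among genes that handle other metals, 10 of 20 iron genes rose after rCNT and 1 fell, with a median change of 0.37 against -0.02 over all genes, of which 12.4% rose and 9.41% fell. Those that rose include Ltf (lactoferrin, 3.73 ± 0.58, log2 change ± SE here and in the lists that follow) and Lcn2 (lipocalin 2, which binds iron-loaded siderophores, 2.29 ± 0.30). They also include the Steap family genes Steap1 (2.01 ± 0.21), Steap4 (1.51 ± 0.34) and Steap2 (1.14 ± 0.21), Slc11a1 (0.87 ± 0.27), Hmox1 (0.72 ± 0.17) and the transferrin receptor gene Tfrc (0.68 ± 0.19). Steap3 fell (-0.80 ± 0.27), but was 0.07 within slide 1. Ltf and Steap1 also rose after tCNT (2.62 and 1.13) and BayTubes (1.95 and 1.11), and Lcn2 rose after BayTubes (1.21). Of these 5 calls only that of Steap1 after BayTubes held with each sample left out in turn: Ltf after tCNT had adjusted p of up to 0.457 and Steap1 after tCNT of up to 0.336. After BayTubes, Ltf lay between 1.35 (without Ctrl 2) and 2.63 (adjusted p up to 0.337), and Lcn2 had adjusted p of up to 0.0851. After rCNT, the calls of Slc11a1, Tfrc, Steap3 and Slc31a1 were also lost when some single sample was left out (adjusted p up to 0.102, 0.0654, 0.181 and 0.0847). So were those of the iron genes Hp and Hpx, which also rose (adjusted p up to 0.104 and 0.127). Of 11 copper genes, with a median change of 0.08, 1 rose, the copper-carrying plasma protein gene Cp (1.29 ± 0.19), and 1 fell, the copper importer gene Slc31a1 (-0.36 ± 0.11).

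Of 7 genes listed as MTF1 targets besides the metallothioneins, with a median change of 0.21, 2 rose after rCNT, Cited1 (1.30 ± 0.16) and Gclc (1.06 ± 0.21). Gclc encodes a subunit of the first enzyme of glutathione synthesis. That list also holds Slc30a1 and Slc39a10, which did not pass (0.21 and -0.23). Of 12 NRF2 target genes, with a median change of 0.29, 4 rose, Gclc, Gsr (1.00 ± 0.20), Slc7a11 (0.99 ± 0.25) and Hmox1, and Gsta3 fell (-1.48 ± 0.24), where 12.4% of all genes rose and 9.41% fell. The call of Slc7a11 was lost when 1 sample was left out (adjusted p up to 0.0565).

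Genes of the known metallothionein inducers were counted too, again beside 12.4% of all genes higher and 9.41% lower after rCNT. Of 14 genes of IL-6 signalling, with a median change of 0.36, 4 rose, Il6, its feedback inhibitor gene Socs3 (1.41 ± 0.22), Osm (0.71 ± 0.20) and Osmr (0.65 ± 0.17), and the receptor gene Il6ra fell (-0.72 ± 0.21). Il6 signals averaged 8.63 in rCNT samples and 5.53 in Ctrl samples. Of 12 glucocorticoid-induced genes, with a median change of -0.38, 5 fell, Tsc22d3 (-1.18 ± 0.19), Errfi1 (-1.06 ± 0.20), Per1 (-1.04 ± 0.16), Klf9 (-0.84 ± 0.16) and Pdk4 (-0.63 ± 0.16), while Lcn2, also an iron gene above, and Fkbp5 (0.72 ± 0.16) rose. Fkbp5 also rose after tCNT (0.98), BayTubes (1.12), Graphite (0.74) and fullerene (1.05), though with single samples left out its adjusted p reached 0.130 after tCNT and 0.107 after Graphite. In the same list Per1 fell after tCNT (-0.90), and Zbtb16 rose after tCNT (1.64) and BayTubes (1.30). Those 3 calls were likewise lost with some single sample left out (adjusted p up to 0.203, 0.1003 and 0.107). Of 6 zinc-binding S100 genes, with a median change of 0.54, 3 rose after rCNT, S100a4 (1.83 ± 0.26), S100b (0.80 ± 0.14) and S100a6 (0.62 ± 0.16), whereas S100a8 and S100a9 did not pass. Among these lists the calls of Osm, Il6ra, Pdk4 and S100a6 after rCNT were lost when some single sample was left out (adjusted p up to 0.0847, 0.0664, 0.0585 and 0.0550).

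Some cell type markers moved in the same samples. Their counts are to be read against the 12.4% of all genes that rose and the 9.41% that fell after rCNT. In RNA of whole lung, a change in the share of a cell type and a change of RNA per cell cannot be told apart. After rCNT 9 of 12 monocyte and recruited macrophage markers rose and 1 fell, with Mmp12 at 3.01 and C1qa at 1.48, and their summed signal was 15.54 to 15.76 in rCNT samples and 15.33 to 15.59 in Ctrl samples (log2). All 5 tested eosinophil markers rose, Prg2 by 2.89, with summed signals of 10.48 to 11.35 in rCNT samples and 9.17 to 9.39 in Ctrl samples. Of 11 neutrophil markers 2 rose and 1 fell (16.16 to 16.22 in rCNT samples and 16.23 to 16.46 in Ctrl samples), and of 11 alveolar macrophage markers 3 rose and 1 fell (17.15 to 18.13 in rCNT samples and 16.67 to 17.04 in Ctrl samples). Alveolar type 1 cell markers fell in 7 of 10 (16.99 to 17.24 in rCNT samples and 17.66 to 17.76 in Ctrl samples), and endothelial markers in 7 of 10 (16.89 to 17.13 in rCNT samples and 17.48 to 17.64 in Ctrl samples). Of 10 alveolar type 2 cell markers 1 rose and 3 fell (19.05 to 19.29 in rCNT samples and 18.89 to 19.23 in Ctrl samples), and of 10 club and goblet cell markers 5 rose and 1 fell (17.99 to 18.27 in rCNT samples and 18.24 to 18.30 in Ctrl samples). Ciliated cell markers rose in 5 of 8, Foxj1 by 1.10 (15.34 to 15.53 in rCNT samples and 15.31 to 15.51 in Ctrl samples), and red blood cell markers fell in 4 of 6 (16.84 to 17.56 in rCNT samples and 17.47 to 17.87 in Ctrl samples). Of 8 lymphocyte markers 1 rose, of 10 fibroblast markers 1 rose and 2 fell, of 6 mesothelium markers 2 fell, of 12 heart muscle markers 1 fell and of 5 tested liver cell markers 0 passed (limma; 0 also at an unadjusted p under 0.05). The part of these shifts in the changes of Mt1, Mt2, Slc39a14 and Slc39a8 was not tested.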

How the data were processed

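Lung RNA pools were measured on two-colour arrays, each dye holding its own sample. The authors deposited a log2 signal for each spot in each sample. The submitters' processing notes name Agilent Feature Extraction and limma, without versions or settings, and, sorted by size, the values of different samples match to within 0.0856, as after quantile normalization. Of 62976 spots, 31465 have a gene name in the platform annotation. Symbols were updated with a RefSeq table of GRCm38.p6. A gene was tested if its brightest spot lay above the 40th percentile of a sample in at least 3 samples, and no spot flags for background or saturation were used here.

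Changes were fitted on all 24 samples with limma 3.58.1 in R 4.3.3, with terms for group and dye and with array as a random block (correlation 0.399, 16 residual and 3.54 prior degrees of freedom), so that a fitted change can differ from the plain difference of means. Genes with an adjusted p under 0.05 were called changed. On simulated data for rCNT against Ctrl (16519 genes, normal noise), 50 genes were altered 1.5-fold, 100 were altered 2-fold and 50 were altered 4-fold. Of these, 32%, 75% and 100% were found in this order, and 4.08% of calls were false. Far fewer genes were altered there than the 21.8% called after rCNT, so these rates need not hold for the real data. Alternatives changed the dye term, array block, filter, scaling, spots, variance prior, threshold, samples and slide. The genes and lists were chosen with earlier results of these data known. Genes named from the lists are those past the threshold with the smallest p (up to 10 a list), up to 3 by p and 3 by signal for markers, and the 5 most alike for each of the 6 genes. Sftpc is among the 3 brightest of its list, and Mt3, Mt4, Slc39a10, S100a8 and S100a9, which did not pass, and Steap3, the 11th of its list by p, were added after their values were seen. Promoter sequences are from RefSeq, GRCm38.p6. Protein sequences were not used here.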

Additional observations from a re-analysis of the deposited data

Results flagged for a closer look

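Slc39a8 in fullerene 23 stood apart from its group. Its signal was 12.29, while the nearest other fullerene sample was at 13.17, and that gap was 0.885 of the range of the group, above the critical value of 0.829 for 4 samples. It was the 1 such sample in 18 groups of 4 tested, and chance flags about 1 group in 20. Without fullerene 23 the change of Slc39a8 after fullerene was 0.17, against -0.03 with it, and neither passed the test.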

How the results depend on the processing

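No analysis paired by replicate number was possible because the groups share no replicate numbers. Samples on the same array were compared with each other in the fit with array as a fixed term. No rCNT sample shared an array with a Ctrl or tCNT sample. That fit therefore compared rCNT with Ctrl and with tCNT only through other materials on shared arrays. Mt2, Slc39a14 and Mt1 kept a positive change after rCNT against Ctrl in every alternative run except Mt1 within slide 2, and passed the test in 23, 23 and 18 of 25. Leaving out single samples gave changes of 0.678 to 0.814 for Mt1, 2.00 to 2.29 for Mt2 and 1.36 to 1.66 for Slc39a14, and 2 to 4 of the 6 genes called. Mt1 missed the threshold with no array block (0.638), with only the groups compared (0.691), within slide 1 (0.840; 0.887 with no dye term and no array block) and within slide 2 with no dye term and no array block (0.504), and was -0.376 within slide 2, where Mt2 was 0.853 and Slc39a14 1.02, both short of the threshold (2.13 and 1.79 with no dye term and no array block). The number of the 6 genes called was then 1 (Slc39a8) and 0, against 3. In slide 2 the dye term rests on Graphite 13 and 14 alone, and slide 2 has 3 samples of rCNT and Ctrl.

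The 2 calls between rCNT and tCNT became 0 with array as a fixed term or with only these groups. They became 1 with no filter or without the array of rCNT 4 and Graphite 16. With slide as a further term they became 3, with Slc39a8 added. Leaving out single samples gave 1 to 2. Mt2 passed there in 11 of 22 alternatives and Slc39a14 in 20. Against the mean of the other 5 materials the 3 calls became 1 (Slc39a14) with array as a fixed term, and leaving out single samples gave 2 to 3. After BayTubes the 0 calls became 1 within slide 2 (Slc39a8, -0.967) and 0 to 1 when single samples were left out (Mt2 without BayTubes 19).

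The changes that turned sign follow, and where a slide has a pair of values the second is from the fit with no dye term and no array block. After rCNT against Ctrl, Slc30a1 was -0.0950 when array was fixed, -0.200 and -0.146 within slide 2 and -0.249 to 0.394 when single samples were left out (lowest without Ctrl 2), Mtf1 was -0.246 and Tsc22d3 0.142 within slide 2, and Steap3 was 0.0712 and 0.0607 within slide 1. Leaving out single samples gave Slc30a1 changes of -0.116 to 0.550 after tCNT, -0.0659 to 0.557 after SES and -0.0518 to 0.644 after BayTubes, each lowest without Ctrl 2. After tCNT, Mtf1 was -0.0401 with no array block, and Slc39a8 was 0.00908 with quantile normalization applied again, 0.0882 without tCNT 7 and -0.126 to 0.131 over all samples left out. After SES, Slc30a1 was -0.0353 and Slc39a14 -0.0837 within slide 2 in both fits, and Slc39a8 -0.0434 within slide 1 with no dye term and no array block. After BayTubes, Slc39a8 was -0.0897 with no array block, -0.0320 with array fixed, -0.111 with only the groups, -0.0330 and -0.230 within slide 1, -0.148 within slide 2 with no dye term, -0.0140 without the array of rCNT 4, -0.0623 without Graphite 13, -0.0646 without BayTubes 19 and -0.0734 to 0.168 over all samples left out. Mtf1 was then -0.00112 within slide 1 and -0.143 within slide 2, Mt1 -0.169 and Slc39a14 -0.200. After Graphite, Slc39a8 was 0.0730 with array fixed, against -0.48 in the reported fit, and Slc39a14 -0.0336 within slide 2. After fullerene, Slc39a8 was 0.0235 with no array block, 0.307 within slide 2 with no dye term, 0.0193 without the array of rCNT 4, 0.112 without Ctrl 2 and -0.187 to 0.169 over all samples left out. Within slides 1 and 2, Mt1 was then -0.0360 and -0.0935, Mt2 -0.354 and -0.0938, and within slide 2 Mtf1 -0.150, Slc30a1 -0.0260 and Slc39a14 -0.726. Between rCNT and the mean of the other materials, Mtf1 was 0.00199 with array fixed, 0.0763 with the mean of its spots, 0.0196 within slide 1, 0.0277 without the array of rCNT 4, 0.0278 without rCNT 4, 0.00218 without BayTubes 20 and -0.149 to 0.0390 over all samples left out. Between rCNT and tCNT it was -0.0224 with slide as a term, -0.0432 within slide 1 with no dye term and no array block, -0.0124 without tCNT 7 and -0.0384 to 0.149 over all samples left out. The cause of these differences was not tested.

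Over all genes, rCNT against Ctrl gave 3600 calls, and 1074 with array as a fixed term, 1017 with only the groups compared, and 2392 and 285 within slide 2. Between rCNT and tCNT the 1461 calls became 12, 55 and, within slide 1, 3279 and 2903, and between rCNT and the other materials the 4334 calls became 936 with array fixed. The fits within slides without dye term and array block were chosen after seeing the data. No fit of tCNT was possible within slide 2, which holds no tCNT sample. Apart from the fits without Graphite 13 or without the array of rCNT 4 and Graphite 16, fits with samples left out used the array correlation of all samples. Fits on 2 groups or on 1 slide also used it where samples shared an array, except those with no array block, which used no array correlation. A group left with 1 sample was assumed to vary like the others.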
